A study of Mus musculus with 4 samples.

Results

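Microglia and macrophages are the immune cells of the retina, and in this sort for ganglion cells they were 167 of the 3104 barcodes with under 15% of their transcripts from mitochondrial genes (5.38%, 95% interval 4.61% to 6.23%). A barcode marks the transcripts of 1 droplet, and transcripts are counted as unique molecular identifiers (UMIs). Members were chosen by 4 conditions: C1qa, C1qb and C1qc together at 20 or more UMIs, no UMI of Slc17a6 (the vesicular glutamate transporter of ganglion cells), no UMI of Lhx1 (a horizontal cell factor) and a mitochondrial share under 15%. The remaining 2937 barcodes under 15% served as the comparison, and the whole matrix held 3237. The cells came from 4 retinas of C57BL/6 mice aged 3 months, all in 1 group, with a Brn3b::GFP reporter that marks cells in which the Brn3b (Pou4f2) gene is active. Retinas were dissociated, sorted for GFP and put through droplet capture with version 2 of the 10x Chromium 3′ chemistry. All barcodes carry the same suffix, so none can be tied to a retina, and the matrix is 1 pooled sample with no replicates. The members were chosen on the same counts that are described here, so no test is given. All intervals are exact 95% intervals that cover counting error only.

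Microglia enter the retina in the embryo and live among its neurons, where they survey their surroundings, take up debris and, through complement, tag synapses for removal. They depend on signalling through the receptor Csf1r, and in health they are told apart from other macrophages by genes such as P2ry12, Tmem119 and Sall1. Macrophages at the borders of the tissue, along vessels and in the ciliary body, share most myeloid genes with microglia but carry Mrc1, Pf4 and Ms4a7. Apoe, a carrier of lipids, is made in the retina mainly by Müller glia, and in microglia and macrophages its level differs between states.

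The 3 C1q genes are neighbours on the minus strand of chromosome 4 in mm10 (GRCm38): C1qb at chr4:136880129-136886187, C1qc at chr4:136889804-136893065 and C1qa at chr4:136895917-136898803. Spi1 (PU.1), a factor that binds GAGGAAGT, was itself among the genes of these cells. Sequences are shown for the markers C1qc, C1qb and Ctss, the leading gene Slamf9 and the cytokine gene Il1a. They were picked by hand, so how many of them hold a match is not a result. Each runs 5′ to 3′ along the gene's strand from 250 bases before to 10 bases after the start in RefSeq's GRCm38.p6 annotation, with a match on either strand in capitals. The first 4 were searched for GAGGAAGT (its reverse complement on the minus strand) and the last, of the cytokine gene Il1a, for the AP-1 motif TGANTCA. The windows are C1qc at chr4:136892905-136893164 (minus strand), C1qb at chr4:136886191-136886450 (minus), Ctss at chr3:95526536-95526795 (plus), Slamf9 at chr1:172475110-172475369 (plus) and Il1a at chr2:129309963-129310222 (minus).
C1qc: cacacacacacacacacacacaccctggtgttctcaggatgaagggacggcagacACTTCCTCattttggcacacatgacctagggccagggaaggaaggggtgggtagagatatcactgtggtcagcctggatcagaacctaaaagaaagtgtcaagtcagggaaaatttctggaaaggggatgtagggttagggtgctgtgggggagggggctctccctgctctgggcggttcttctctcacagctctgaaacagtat
C1qb: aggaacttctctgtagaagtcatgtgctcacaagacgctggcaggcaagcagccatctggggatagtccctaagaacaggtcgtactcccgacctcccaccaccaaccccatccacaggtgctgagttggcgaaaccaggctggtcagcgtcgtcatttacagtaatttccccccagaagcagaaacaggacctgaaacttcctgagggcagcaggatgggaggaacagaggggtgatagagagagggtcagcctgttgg
Ctss: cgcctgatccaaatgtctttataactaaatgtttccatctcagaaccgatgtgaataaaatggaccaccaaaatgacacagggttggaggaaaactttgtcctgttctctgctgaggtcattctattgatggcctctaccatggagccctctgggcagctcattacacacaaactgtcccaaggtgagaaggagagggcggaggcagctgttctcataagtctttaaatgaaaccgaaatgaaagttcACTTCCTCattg
Slamf9: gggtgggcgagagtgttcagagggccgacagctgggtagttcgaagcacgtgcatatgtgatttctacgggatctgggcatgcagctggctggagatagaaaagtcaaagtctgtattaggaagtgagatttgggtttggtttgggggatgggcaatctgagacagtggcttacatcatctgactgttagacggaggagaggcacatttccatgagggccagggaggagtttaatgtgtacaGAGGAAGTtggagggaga
Il1a: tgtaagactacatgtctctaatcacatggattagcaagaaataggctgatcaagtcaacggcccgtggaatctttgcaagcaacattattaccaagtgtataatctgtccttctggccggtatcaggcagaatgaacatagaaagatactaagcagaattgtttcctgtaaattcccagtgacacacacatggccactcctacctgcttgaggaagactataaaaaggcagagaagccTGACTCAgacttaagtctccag
The match began 195 bases before the start in C1qc, 2 before it in Ctss, 8 before it in Slamf9 and 12 before it in Il1a, and the 8 letters did not occur in the C1qb window. GAGGAAGT occurred on either strand in 4 of the 21 windows found for 19 of the 25 genes with the highest ratios of members to other barcodes (19.0%), against 1052 of all 32851 windows of 300 bases (3.20%). The 4 were those of Slamf9, Tagap and the near-identical copies Bcl2a1a and Bcl2a1b. In the list of core microglia and macrophage genes it occurred in 3 of 16 windows, in the homeostatic list in 1 of 23 and in the cytokine list in 0 of 18. TGANTCA occurred in 5 of the 21 leading windows, 1 of the 16 core, 1 of the 23 homeostatic and 6 of the 18 cytokine windows, against 7.81% of all windows. The interferon-stimulated response motif, the third searched, occurred in 1, 2, 0 and 2 windows of these lists in the same order, and in 3.44% of all. A match describes the letters in the window and was not tied to binding.

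C1q content chose the members, and its distribution is a description of that rule. C1q UMIs per member ran from 22 to 504 with a median of 111, whereas 1708 of the other barcodes had none and 1207 had 1 to 5. Just inside the threshold lay barcodes with 22, 23 and 33 UMIs, which also held 199, 251 and 81 UMIs of bipolar cell genes. The one with 22 held 256 UMIs of cone and 181 of rod genes as well. Just outside lay 16, 15, 14 and then 6. Of the members, the highest mitochondrial share was 13.6%, and the lowest among barcodes left out for that share alone was 15.4%. A further 18 barcodes had 20 or more C1q UMIs but also Slc17a6 or Lhx1, and they count among the other barcodes. In 11 of these the exclusion rested on a single UMI, while 7 had 50 or more UMIs of the ganglion cell list.

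**Figure D1:**
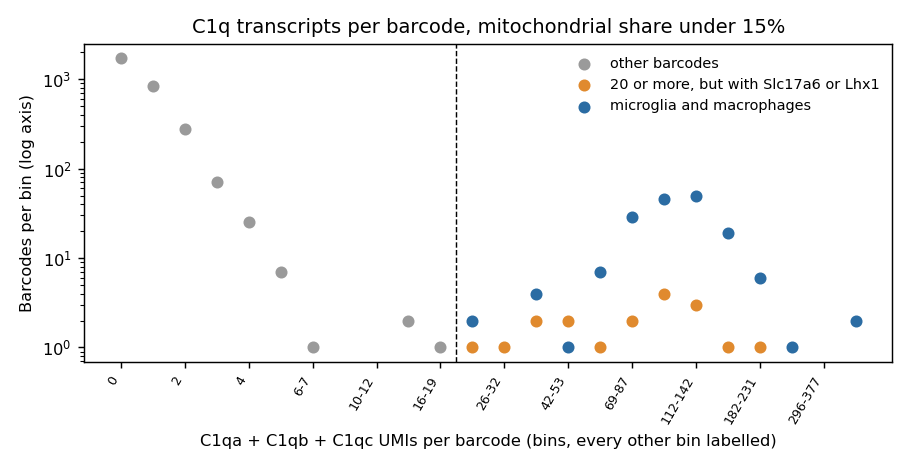
Number of barcodes (log axis) by the sum of C1qa, C1qb and C1qc UMIs, for other barcodes (grey), barcodes at 20 or more that also had Slc17a6 or Lhx1 (orange) and members (blue), with the minimum of 20 as a dashed line. The members centre on a median of 111 UMIs, and no barcode lies between 7 and 13.

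Members were small in RNA content. They held 3205 to 13335 UMIs each with a median of 3875, against a median of 9014 in the other barcodes, and a median of 1563 detected genes against 3258. Their median mitochondrial share was 2.49%, against 6.24%. Together they carried 783667 UMIs, 2.50% of the matrix. Because depth differed, shares of barcodes with a gene are given after thinning each barcode to 3000 UMIs, a depth that every barcode reached, and levels are CPM, the UMIs of a gene per 1000000 UMIs summed over a group.

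All 6 marker genes of the label were present. After thinning, every member had Ctss, the lysosomal protease cathepsin S, against 6.78% of the other barcodes. The fractalkine receptor Cx3cr1 was found in 93.4% against 1.12%, and the signalling adaptor Tyrobp in every member against 3.85%. The C1q genes, which the rule used, were in at least 99.4% of members and in 5.31% to 7.73% of the others. Levels in the other barcodes are partly those of the 18 C1q-rich barcodes among them, which held 47.4% of the C1qa UMIs outside the members. Pooled C1qa was 234-fold higher in members (219 to 249.6), and 442-fold higher when those 18 were left out.

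Over all 11645 genes with 100 or more UMIs in both groups together, 1320 were 2-fold or more higher in members (11.3%) and 4176 were 2-fold or more lower (35.9%). The median gene was lower by 0.58 on the log2 scale. Scaling both groups to the same median ratio in place of the same total gave 2261 higher and 2554 lower, so the higher genes were 47.0% of the called genes in place of 24.0%. This shift is small beside the ratios of myeloid genes, and each gene group below can be read against the median of -0.58.

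The genes with the highest ratios were those of immune cells. Ly86, a partner of Toll-like receptors, was at 1734 CPM in members and 4.84 in the others, a ratio of 358 (302 to 428). Its UMIs per member ran from 0 to 23 with a median of 7, and it was detected in 166 of the 167. Fcgr3, an Fc receptor for immunoglobulin G, had a ratio of 282, the lectin Siglech 290.4, and the microglial membrane protein Tmem119 268. Among the 25 leading genes were also the Toll-like receptor relative Cd180 (ratio 319.7), the GTPase regulator Tagap (318), the small GTPase Rhoh (355), the receptor Slamf9 (275) and the adaptor Blnk (258). Bcl2a1a and Bcl2a1b, survival genes of the Bcl2 family, were in this set too, but they are near-identical copies whose reads the counting could split. Some leading genes rested on few members: H2-Aa was in 3, Cxcl2 in 6, Ccl5 in 18 and Il1b in 22.

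Receptors that microglia use to sense neurons were high in members. Csf1r, the receptor for Csf1 and interleukin 34, was at 1709.9 CPM (1619.6 to 1804) against 7.45, and 165 of 167 members had it. Cx3cr1 was at 1240.3 against 5.21, and the lipid receptor Trem2 at 2308 against 11.9. The signal-inhibiting receptor Sirpa was at 345 against 27.2, and the transforming growth factor receptors Tgfbr1 and Tgfbr2 at 403 and 142 against 11.2 and 2.70. All 12 of the 15 listed receptors that reached 100 UMIs were 2-fold or more higher in members. Cd200r1, the receptor for Cd200, was seen in members with 10 UMIs and did not reach that filter.

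The ligands for these receptors went both ways. Cx3cl1, the ligand of Cx3cr1, was at 15.3 CPM in members (7.91 to 26.7) and 71.8 in the others, a ratio of 0.213. Il34 had 1 UMI in members and 749 in the others, a ratio of 0.0510 (0.00129 to 0.285). Cd200 had a ratio of 0.245 and Cd47, the ligand of Sirpa, 0.356. The other direction was seen for Tgfb1, at 286 CPM in members and 9.68 in the others, and for Csf1, at 17.9 and 5.84 with only 14 UMIs in members. Of 16 listed ligands, 15 reached 100 UMIs, 5 were 2-fold or more higher in members and 8 lower, where 11.3% and 35.9% of all genes were. Gas6 and Pros1, which bridge dying cells to the receptor Mertk, differed from each other: Pros1 was 43.9-fold higher in members and Gas6 had a ratio of 1.15 (0.881 to 1.47).

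**Figure D2:**
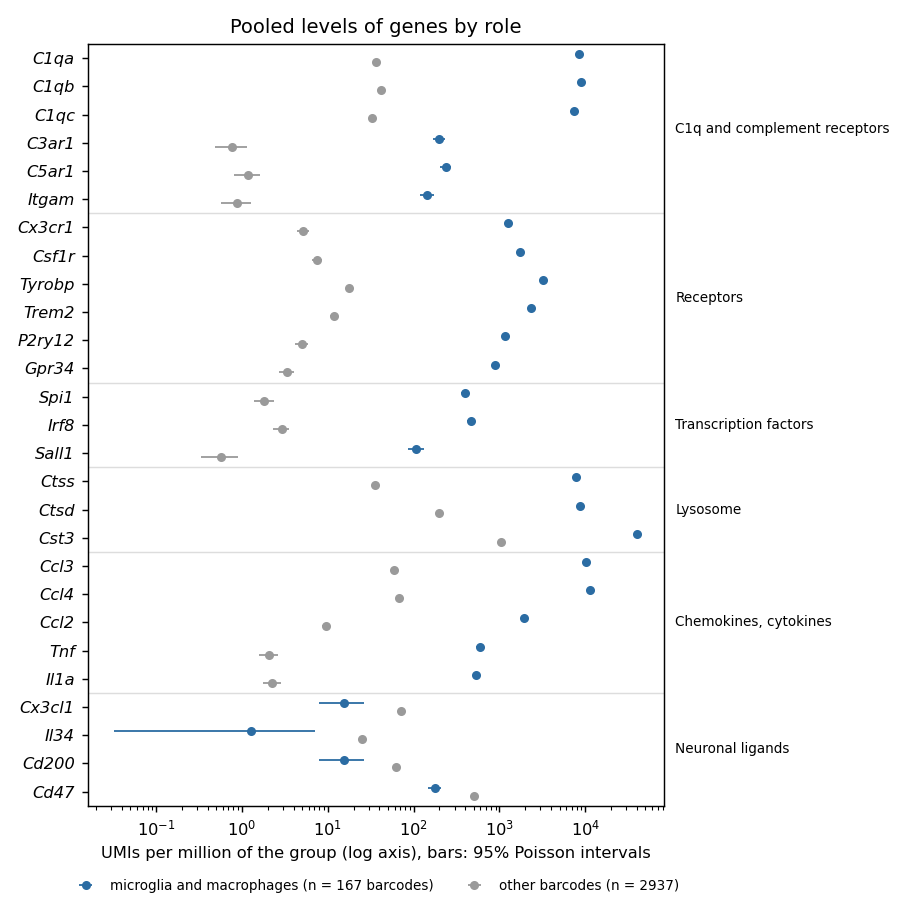
Pooled levels of 27 genes grouped by role, in CPM on a log axis, for the 167 members (blue) and 2937 other barcodes (grey), with 95% Poisson intervals as bars. Receptors, factors, lysosomal genes and chemokines are higher in members, and the 4 neuronal ligands at the bottom are higher in the other barcodes.

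Transcription factors of the myeloid lineage followed. Spi1, the PU.1 gene, was at 397 CPM against 1.84, and was detected in 68.9% of thinned members against 0.443%. Irf8, which pairs with PU.1, had a ratio of 161, Irf5 of 199, Ikzf1 of 244 and Cebpa of 161. Sall1, a factor that in the brain marks microglia and not other macrophages, was at 107 against 0.568 and was seen in 63 members with at most 3 UMIs. Mef2c (33) also had transcripts in other barcodes and had a lower ratio. Of 26 listed factors, 22 reached 100 UMIs and 20 were 2-fold or more higher, with a median of 4.07 on the log2 scale.

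Genes of the lysosome and of phagocytosis were high in members as well. Cst3, the protease inhibitor cystatin C, was at 39971 CPM against 1040.4, with 14 to 536 UMIs per member and a median of 175. The protease Ctsd was at 8601 against 198. Both were found in every member. Ctsb, Lgmn and Ctsz are used by other retinal cells as well, with 357, 109 and 90.8 CPM there, and their ratios were 5.08, 27.7 and 24.0. Of 28 listed lysosomal genes, 27 reached 100 UMIs and 26 were 2-fold or more higher (median 3.50). Subunits of the phagocyte oxidase were present too, among them Cyba (87.6-fold) and Ncf1 (219), as was Hvcn1, the proton channel that supports it (227).

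In the complement system, members carried C1q and receptors but little of the later components. C3ar1 and C5ar1, receptors for the C3a and C5a fragments, had ratios of 259 and 203. The subunits of complement receptor 3, Itgam and Itgb2, had 166 and 136. C3, the component that C1q leads to, had 1 UMI over all members, and C4b had 2. C1s1, Cfb, Cfd and Vsig4 had none. The membrane inhibitor Cd59a was lower in members, with 9 UMIs and a ratio of 0.171 (0.0782 to 0.326).

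Chemokines and cytokines were abundant and uneven. Ccl3 was at 10060.4 CPM (9839.5 to 10285) against 58.4 in the others, and Ccl4 at 11248 against 68.2. Both are chemoattractants for myeloid cells. Ccl4 ran from 0 to 277 UMIs per member with a median of 43, and 159 members had it. The monocyte attractant Ccl2 was in 63.5% of thinned members, Tnf in 53.9% and Il1a in 56.3%, against 2.04%, 0.579% and 0.579% of the others. Il1b was in 11.4%, Ccl5 in 8.38% and Cxcl10 in 7.78%, and Il6 and Il10 had 7 UMIs and 1 UMI in all. Across the 25 listed genes a member held 1 to 728 UMIs with a median of 111, and the 2 lowest members, with 1 and 2, were also 2 of the 3 with 80 to 88 UMIs of bipolar cell genes and 10 or more of Apoe.

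Immediate-early genes, which dissociation of tissue is known to induce, were also higher in members than in the other barcodes. Fos was at 3140.4 CPM against 418, Jun at 3353 against 357 and Atf3 at 1575 against 25.3. Klf2 had a ratio of 96.6 and Egr1 of 12.4. Of 29 listed genes, 28 reached 100 UMIs and 24 were 2-fold or more higher (median 3.50), and no member was without them (5 to 301 UMIs, median 144). The chaperones Hsp90aa1 and Hspa8 had ratios of 0.546 and 0.737, and under median-ratio scaling Hspa8 turned to 1.10. How much of the chemokine and immediate-early signal arose during dissociation was not tested. Within the members, thinned Ccl4 and the summed immediate-early genes had a Pearson r of 0.146 and a Spearman rho of 0.167 over 167 barcodes of 1 sample, whereas Ccl3 and Ccl4 had 0.616 and 0.650.

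Major histocompatibility genes divided by class. B2m, the light chain of class I, was at 4119 CPM against 51.8 and in 99.4% of thinned members. The class I heavy chains H2-D1 and H2-K1, members of a multigene family whose reads may be split, had ratios of 21.3 and 24.8. The class II chain H2-Aa was in 3 members, H2-Eb1 in 5 and H2-Ab1 in 19, and the invariant chain Cd74 in 27. A single member held 37.1% of all Cd74 UMIs and 49.5% of those of H2-Aa.

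Genes of activated microglia and of lipid handling gave mixed counts in the comparison with other barcodes. Of the 29 disease-associated genes found in the table, 25 reached 100 UMIs, 18 were 2-fold or more higher and 4 lower, and those higher included Cd52 (267), Cd68 (158) and Cd9 (41.2). Spp1 and Igf1, which mark reactive and developmental microglia, were nearly silent, with 6 UMIs each in members and ratios of 0.198 and 0.0995. Cst7 had 15 UMIs, Lpl 21, Gpnmb 3 and Itgax 2. Of 28 lipid genes 22 reached 100 UMIs, 10 were higher and 7 lower: the lysosomal cholesterol carrier Npc2 (11.3) and the acyltransferase Lpcat2 (90.8) were higher, while the desaturase Scd2 (0.170), the fatty acid carrier Fabp5 (0.109) and the sterol gene Insig1 (0.278) were lower.

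The 12 genes lowest in members included Slc17a6, which the rule set to 0 in members while barcodes with it stayed in the comparison. The haemoglobin gene Hbb-bs had 2 UMIs in members and 6556 in the others, where 2 barcodes had 50 or more erythrocyte UMIs. The nicotinic subunit Chrnb3, the adhesion gene L1cam and the vesicle gene Vamp1 each had 1 UMI in members, against 3072, 2382 and 2305. Ebf1, a factor of ganglion cells, had a ratio of 0.0206. Pou4f2, the gene of the reporter, had 3 UMIs in 3 of the 167 members (1.80% after thinning) against 7.90% of the others, and Pou4f1 had 12 UMIs. The table has a row for EGFP, but it is at 0 in every barcode, so GFP transcripts could not be read, and why these cells passed the gate was not tested.

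Rod, cone and bipolar transcripts were present in members at levels near those of the other barcodes, and those of Müller glia, amacrine, horizontal and ganglion cells were mostly lower. Gngt1, a transducin subunit of rods, was at 679 CPM in members and 556 in the others, and in 37.1% and 36.0% of thinned barcodes. Pcp2, of ON bipolar cells, was at 1615 and 1474. The 14 rod genes had a median of 0.20 on the log2 scale and the 10 bipolar genes 0.11, against -0.58 for all genes, and 0 of the 14 and 1 of the 10 passed 2-fold. Of 8 cone genes 1 was lower (median -0.43). Müller glia genes were lower in 11 of 15 (median -1.68), amacrine genes in 6 of 10 (-1.91) and horizontal cell genes in 6 of 7 (-3.38). The horizontal cell list includes Lhx1, which the rule set to 0 in members. The 12 ganglion cell genes, among them Slc17a6 of the rule, were all 2-fold or more lower, with a median of -4.11. In 31 members a list of retinal neuron genes reached 50 or more UMIs, and these held 86.7% of the rod and bipolar UMIs found in members. Scrublet, a doublet caller, marked 3 of the 167 members, and 1 of those 31. Of the 3 marked members, 2 were among the 17 with 10 or more Apoe UMIs (11.8%, against 1.79% of all barcodes). The source of the neuronal and glial transcripts in members was not tested.

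Most listed markers of other blood cells were at 0, but the summed monocyte list was higher in members, mostly through Lyz2. Ccr2 and Ly6c2, which define inflammatory monocytes, had no UMI in members, and neither had Chil3, Fn1 and Vcan. Of 12 listed monocyte genes, 7 were at 0 in members. Among the 3 with enough UMIs for a call, 2 were 2-fold or more higher in members and 1 lower. Summed over the monocyte list, members were at 794 CPM and the other barcodes at 36.5. Lyz2, which also stands in the core microglia and macrophage list, made up most of that sum in members. Of 15 lymphocyte and granulocyte genes in the table, 14 were at 0. The exception was Cd79b, a part of the B cell receptor, with 20 UMIs over 18 members. By a limit of 3 counts, 0 UMIs in 167 members allow up to 1.80% of members with a UMI of the gene, and the exact 95% interval reaches 2.18%.

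Within the members, Apoe varied most. Its Fano factor (variance over mean of thinned counts) was 222, against a median of 1.08 over 1976 genes with a thinned mean of 0.2 or more. Among the next highest were Cxcl2 at 71.8, Cd74 at 67.9, H2-Ab1 at 32.3 and H2-Aa at 32.3. Rod and cone genes (Gngt1 and Pde6h), the bipolar gene Pcp2, and the chemokines Ccl4, Ccl5 and Ccl12 were also among the 15 highest. Of the 1976 genes, 177 had a Fano factor of 2 or more.

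The interferon response was strong in a few members. A member held 0 to 386 UMIs of the 20 listed genes with a median of 4, 12 members had none, and 7 had 50 or more. The list shares Ccl12 and Cxcl10 with the cytokine list. Ifitm3, an antiviral membrane protein, was in 36 members, and a single member held 43.5% of its UMIs. Bst2, which tethers budding viruses, was in 95. The member with 386 was also the deepest, with 13335 UMIs, and had 504 C1q UMIs, 728 cytokine UMIs and 3 of Apoe.

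Division was seen in 1 member. It held 31 UMIs of 8 mitotic genes, the next highest member held 1, and 159 held none. All 12 UMIs of Ube2c, a mitotic ubiquitin enzyme, and all 7 of the topoisomerase Top2a came from 1 member each.

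Apoe divided the members. It was at 0 UMIs in 96, at 1 in 38, at 2 to 9 in 16 (highest 5) and at 10 or more in 17, which ran from 11 to 724 with a median of 155. Nothing lay between 5 and 11. After thinning, 31.7% of members had an Apoe UMI, against 33.7% of the other barcodes. Both shares include barcodes with many Apoe UMIs, so they do not show whether single UMIs are background. Single UMIs of Apoe are not read as expression. The 134 members at 0 or 1 were set against the 17 at 10 or more, with Apoe left out of the totals behind the ratios.

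**Figure D3:**
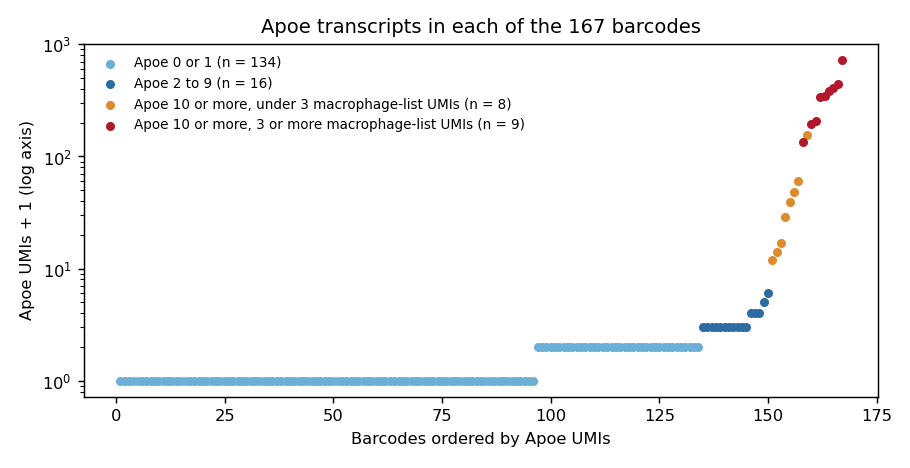
Apoe UMIs plus 1 (log axis) in each of the 167 members in rising order, coloured by Apoe group and, at 10 or more, by whether the member had 3 or more UMIs of the macrophage list. The highest 8 members, at 193 UMIs or more, all have 3 or more macrophage-list UMIs.

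Of 1920 genes with 50 or more UMIs over both groups, 44 were 2-fold or more higher in the Apoe-rich members (2.29%) and 141 were 2-fold or more lower (7.34%), with a median of -0.07 on the log2 scale. With 17 barcodes the lower calls are thin. The interval excluded 1 for 71 of the 141 lower and 43 of the 44 higher genes, but it leaves out the spread between members. Of the higher genes, 27 were seen in 9 or more of the 17 members, and 5 had over 50% of their Apoe-rich UMIs in 1 member. Of the lower genes, these numbers were 10 and 28. The C1q genes, on which members of both groups were chosen, are given as a description. C1qa was at 8736 CPM in Apoe-poor and 8239 in Apoe-rich members, a ratio of 0.982 (0.908 to 1.06), and C1qb and C1qc had ratios of 0.930 and 0.992. Trem2 (1.01, 0.866 to 1.17) and Tyrobp (1.20) were likewise within 2-fold.

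Ms4a7, Pf4 and Mrc1, genes of border macrophages, were found only in Apoe-rich members. Ms4a7 had no UMI in the 134 Apoe-poor or 16 intermediate members. It had 59 in the Apoe-rich ones, in 9 of 17, a ratio of 135 with the 0 set to a floor of 3 counts. Pf4, a platelet chemokine also made by macrophages, had 12 UMIs in 3 of the 17 and none elsewhere (27.5-fold against that floor). The mannose receptor Mrc1 had 7 UMIs in 3 and none elsewhere (16-fold against that floor). Stab1, a scavenger receptor, was on both sides, at 52.8 and 179.8 CPM. Over the 11 genes of the macrophage list, 9 of the 167 members held 3 or more UMIs (5.39%, 2.49% to 9.98%), and all 9 were among the 17. Of the rest of that list, Cd163, F13a1, Cbr2, Clec10a and Cd209f were at 0 in all members. Lyve1 and Folr2 had UMIs only in members outside the 9, Apoe-poor ones among them. The name macrophage therefore rests on Ms4a7, Pf4, Mrc1 and Stab1, and in 1 of the 9 on 5 UMIs of Stab1 alone.

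Library sizes overlapped between these groups. The 9 held 3205 to 11320 UMIs with a median of 5678, and the other 8 Apoe-rich members, with under 3 macrophage-list UMIs, held 3416 to 8074 with a median of 4108. The 16 members at 2 to 9 Apoe UMIs had a median of 5284.5 and the Apoe-poor members 3765. Of the 8, 4 had no UMI of the macrophage list and the others 1 or 2, among them 1 member with 1 UMI each of Ms4a7 and Pf4. Apoe itself was at 135 to 724 UMIs in the 9 (median 345) and at 11 to 155 in the 8 (median 33). Against all 158 other members, 77 of 2241 genes were 2-fold or more higher in the 9 (3.44%) and 366 lower (16.3%). Here Apoe stayed in the totals, and Apoe and Ms4a7, a gene of the list that chose the 9, were among the genes compared.

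Lyz2, the lysozyme of macrophages, followed these genes. It was at 455 CPM in Apoe-poor members, 728 in the 8 Apoe-rich members under 3 macrophage-list UMIs and 3161 in the 9. Of the 27 Lyz2 UMIs in the 8, 11 came from the member with Ms4a7 and Pf4. Its UMIs per barcode ran from 0 to 9 (median 1) in the first group and from 0 to 35 (median 21) in the last, so the groups overlapped. The ratio of the 9 to the Apoe-poor members was 7.40 (6.06 to 9.03). The tetraspanin Cd63 gave 547, 944 and 2043 CPM in the same order, but the deepest of the 9 held 58.5% of their Cd63 UMIs, and without it they were at 1085 CPM, near the 8. Cybb, the catalytic subunit of the phagocyte oxidase, gave 34.1, 0 and 443, and the receptor tyrosine kinase Axl 27.2, 53.9 and 231. Tmem176a, a membrane protein of immature dendritic cells, and Cxcl16, a membrane-bound chemokine, were at 4.76 and 5.59 times the Apoe-poor level in the 9.

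Class II transcripts came mostly from 3 of the 9. H2-Aa had no UMI in Apoe-poor members and 107 in 3 Apoe-rich ones (245-fold with the 0 set to the floor). H2-Eb1 had 1 UMI against 80, and H2-Ab1 14 against 131. Cd74 was at 54.5 CPM in Apoe-poor members and 5916 in the 9, where 4 held it, with 128, 92, 77 and 10 UMIs. The first 3 of these also held H2-Aa, at 53, 33 and 21 UMIs. Flt3, Xcr1, Zbtb46 and Ccr7, of dendritic cells, had 3, 0, 0 and 0 UMIs over all members. Cxcl2, a neutrophil attractant, was the gene with the largest ratio of the exact ones (584, 159 to 4863), but a single member held 87.6% of its UMIs in the Apoe-rich group. A single member likewise held 92.1% of Cxcl10, and its ratio of 7.46 turned to 0.914 without the 9.

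**Figure D4:**
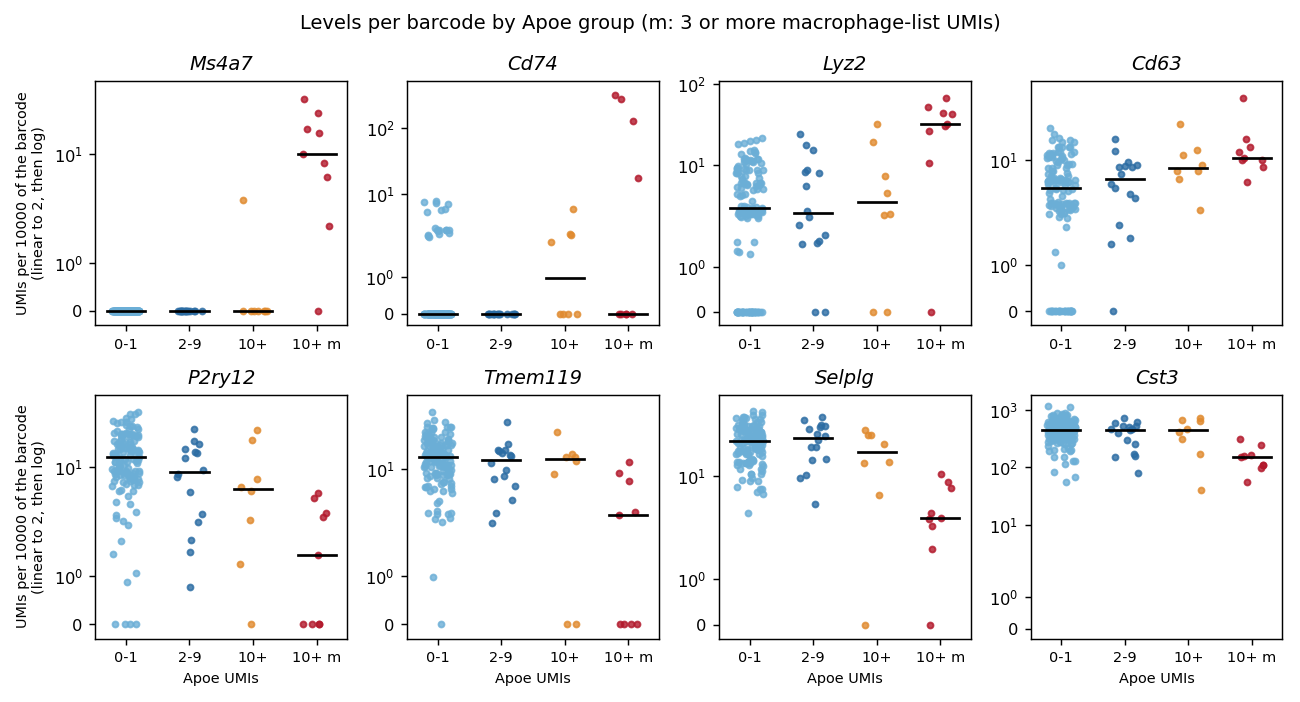
Levels of 8 genes in each member, as UMIs scaled to an equal total per barcode (linear, then log), by Apoe group, with the median of each group as a line; "10+ m" marks the 9 members with 3 or more macrophage-list UMIs. Ms4a7 and Lyz2 are highest in that group, and P2ry12, Tmem119, Selplg and Cst3 have their lowest medians there.

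Genes of homeostatic microglia were lower in the 9 but not throughout the Apoe-rich members. P2ry12, the ADP receptor that steers microglial processes, was at 1333 CPM in Apoe-poor members, 735 at 2 to 9 Apoe UMIs, 809 in the 8 and 231 in the 9. It was found in 130 of 134 Apoe-poor members and 5 of the 9. Relative to the Apoe-poor members the ratio was 0.185 (0.0950 to 0.325) in the 9 and 0.613 (0.411 to 0.882) in the 8. Tmem119 had 0.341 (0.215 to 0.516) and 0.827 (0.592 to 1.13), and the selectin ligand Selplg 0.223 and 0.762. Cst3 had 0.430 and 0.960. Every member of every group had Cst3, with 43 to 536 UMIs in the Apoe-poor and 21 to 348 in the 9, so counts per barcode overlapped.

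Over the list, 23 of 24 homeostatic genes reached 50 UMIs. In the Apoe-rich members 4 were 2-fold or more lower (P2ry12, Selplg, the fructose carrier Slc2a5 and Golm1) and 1, Fcrls, was higher. Of all genes compared, 7.34% were lower and 2.29% higher. The median of the list was -0.60, against -0.07 for all genes. Summed over the list, the 9 held 8311 to 43816 CPM per barcode (median 24649), the 8 held 7026 to 98660 (median 72389) and the Apoe-poor members 10201 to 154086 (median 72215). Fcrls, an Fc receptor-like gene of microglia, was at 196 CPM in the Apoe-poor members, 728 in the 8 and 385 in the 9. Sall1 had 69 UMIs in Apoe-poor members and 7 and 2 in the 8 and the 9, too few to separate the groups (ratio of the 9 0.349, 0.0415 to 1.31).

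Single lysosomal and iron genes were mostly within 2-fold between the Apoe groups, but the summed lysosomal list was lower in the 9. Its median per barcode was 94307 CPM in Apoe-poor members, 100103 in the 8 and 38922 in the 9. Ctsd was at 8772 CPM in Apoe-poor and 10251 in Apoe-rich members, Ctsb at 1831 and 2293, and Ctss at 8345 and 5811. The ferritin chains Fth1 and Ftl1 had ratios of 1.38 and 1.31. Of 28 lysosomal genes 23 reached 50 UMIs, and Cd63 alone was 2-fold or more higher (3.02), a call lost without the deepest of the 17 (1.94). Without that member Ctsd and Ctsb turned from 1.22 and 1.30 to 0.904 and 0.902, and Ftl1 fell to 1.08. Of the disease-associated list 15 genes reached 50 UMIs and 2, Cd63 and Lyz2, were higher, where 2.29% of all genes were. Genes of that state below the filter were few in number: Cst7 had 6 UMIs in Apoe-rich members with 83.3% in 1 of them, Lpl 4, and Apoc1, a lipid carrier beside Apoe, 12 with 75.0% in 1.

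Chemokines were not higher as a group in Apoe-rich members, but single genes were. Ccl3 had a ratio of 0.763 and Ccl4 of 0.648 (0.597 to 0.702), with 11980.5 CPM in Apoe-poor members, 10140.0 in the 8 and 5531 in the 9. Of 25 listed cytokine genes 16 reached 50 UMIs, 5 were 2-fold or more higher (Cxcl2, Ccl7, Cxcl10, Cxcl16 and Il1b) and 2 lower (Ccl5 and Ccl9). Of all genes compared, 2.29% were higher and 7.34% lower. The median of the list was -0.13, against -0.07 for all genes. Ccl7 had 60 UMIs in 4 of the 17, of which 1 held 45.0%. Of 20 interferon genes 6 reached 50 UMIs and 4 were higher, again beside 2.29% of all genes. Among the 4 were Ifitm3 (2.33) and Bst2 (2.29), which turned to 0.738 and 0.418 without the 9, as Il1b turned from 2.66 to 0.516. Ifitm3 was highest at 2 to 9 Apoe UMIs, at 968 CPM. None of the 25 immediate-early genes that reached 50 UMIs passed 2-fold, with a median of -0.21.

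**Figure D5:**
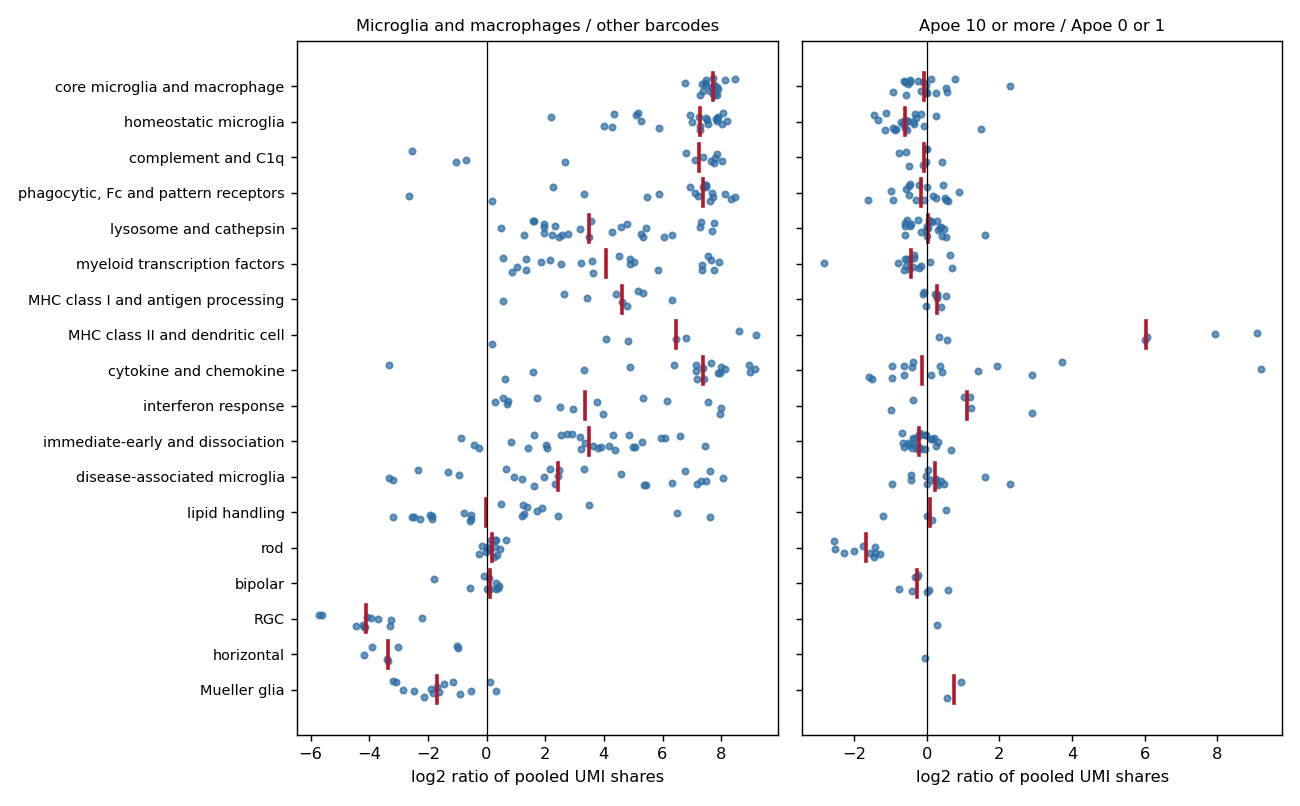
Log2 ratios of single genes in 18 lists (points, genes passing the UMI minimum) with the list's median (red line), for members against other barcodes on the left and Apoe-rich against Apoe-poor members on the right. On the left the core, homeostatic and cytokine lists have medians of 7.71, 7.27 and 7.37, and on the right class II genes have a median of 6.04 and rod genes -1.67. The core, complement, horizontal and RGC (ganglion cell) lists include genes that the rule for members used. These are pooled ratios, and per barcode the summed rod list had medians of 1071 CPM in Apoe-poor and 1193 in Apoe-rich members.

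Pooled levels of retinal neuron and glia transcripts also differed between the Apoe groups. Of the 14 rod genes, 10 reached 50 UMIs. All 10 were 2-fold or more lower in Apoe-rich members (median -1.67), where 7.34% of all genes were. Per barcode the groups were close, with medians of the summed rod list of 1071 CPM in Apoe-poor and 1193 in Apoe-rich members. The 13 members with 50 or more rod UMIs were all Apoe-poor. Gngt1 was at 849.8 CPM in Apoe-poor and 169 in Apoe-rich members, with at most 82 and 4 UMIs per barcode and medians of 0 and 1. Without the 31 members rich in neuronal transcripts, it turned from a ratio of 0.207 to 1.29. Müller glia transcripts were found in 16 of the 17 Apoe-rich members and were absent from only 3 of the 134 Apoe-poor ones. The summed Müller list had a per-barcode median of 587 CPM in Apoe-rich, 1082 in Apoe-poor and 1548 in intermediate members. Among Apoe-rich members these transcripts were most abundant in 3, with 147, 37 and 30 UMIs of the list against at most 12 in the others. These 3 lay at 47, 11 and 13 Apoe UMIs. They set the levels of Rlbp1 (10.2 CPM in Apoe-poor members, 566 in the 8 and 0 in the 9), Glul (816, 3047 and 405) and Dbi (128, 863 and 154). Spc25, a kinetochore gene, had 92.9% of its Apoe-rich UMIs in the member with 147. A further 3 Apoe-rich members, at 135, 155 and 193 Apoe UMIs, carried 80 to 88 UMIs of bipolar genes, and 2 of them count among the 9. Since Müller glia make Apoe, the Apoe of the first 3 cannot be told apart from that of glial RNA in the same droplet. Without the 9 members, 70 genes were 2-fold or more higher and 224 lower among the remaining Apoe-rich members.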

How the data were processed

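The labels name 4 retinas of C57BL/6 mice aged 3 months in 1 group, sorted for GFP and processed with the 10x Chromium 3′ V2 kit. The deposited table holds raw counts, the UMIs of each gene in each barcode. Cell Ranger (no version), Seurat 2.2 and mm10 are named in the submitters' processing notes. What each was used for, and how cells were called, the sources used here do not say. The 27999 rows all name a gene, and the 3237 barcodes are distinct and share 1 suffix. They cannot be tied to retinas, so no fit per retina, which was foreseen only for barcodes that name their retina, was made, and the pooled matrix was described without p-values or standard errors.

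The members and the 34 gene lists were chosen with earlier results of these data known. UMIs were summed per group and scaled to CPM, and ratios of 2 or more either way were called where a gene had at least 100 UMIs in the 2 groups together (at least 50 within the members). Apoe was left out of the totals behind ratios between Apoe groups. It was kept in the CPM values and in the comparison of the 9 macrophage-list members with all other members. Intervals are Clopper-Pearson for shares, Poisson for levels and conditional binomial for ratios, all at 95%. A group at 0 entered a ratio at a floor of 3 counts. Barcodes were thinned without replacement to 3000 UMIs. For genes with 2 rows the row with more UMIs was used. Doublets were kept, and Scrublet, as run in scanpy 1.11.5, marked 58 of 3237 barcodes (1.79%). The rule for named genes took the 25 highest and 12 lowest ratios of members to others, the 15 highest and lowest ratios between Apoe groups, the 12 highest of the macrophage-list members, the 15 highest Fano factors and members of the lists, mitochondrial and ribosomal protein genes aside; which list members are printed with values was chosen after these were seen, and some genes under this rule are not reported here. The ratio calculation was tested on simulated counts. Alternatives changed the C1q, mitochondrial, Apoe and UMI minimums, the scaling, the thinning, and the barcodes left out. Python 3.11.15, numpy 2.4.6, scipy 1.17.1 and pandas 2.3.3 were used, with coordinates from GENCODE M21 (GRCm38).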

Additional observations from a re-analysis of the deposited data

Results flagged for a closer look

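Barcodes at or over the mitochondrial maximum, which entered no comparison, also held C1q transcripts: 7 of the 133 barcodes at 15% or more had 20 or more C1q UMIs (5.26%, 2.14% to 10.5%). The next highest in that set had 17. The 7 held 73 to 120 C1q UMIs, 3606 to 7161 UMIs in all and 15.4% to 25.1% from mitochondrial genes. They had 1 to 9 UMIs of P2ry12, 3 to 14 of Tmem119, at most 2 of Apoe and none of Slc17a6 or Lhx1. Their share was close to the 5.38% under the maximum, and the difference was not tested.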

How the results depend on the processing

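The share of members stayed between 5.22% and 6.00% under all 7 alternatives tried for it. Genes 2-fold or more higher in members numbered 1320, and 2261 under median-ratio scaling, 2307 with a minimum of 30 UMIs and 5080 with 1. Genes lower numbered 4176, and 2554 under median-ratio scaling. Within the members, 44 genes higher at 10 or more Apoe UMIs became 70 without the macrophage-list members, 28 without members with 3 or more Glul, Rlbp1, Slc1a3 and Dkk3 UMIs, 73 with means of per-barcode CPM, 224 with a minimum of 20 UMIs and 2277 with 1. The 141 lower became 224, 74, 575 and 811 under the first, the second and the last 2 of these, 66 with Apoe at 5 or more against 0, and 88 without members with 50 or more UMIs of a retinal neuron list. A minimum of 2 macrophage-list UMIs gave 17 members in place of 9. Of single ratios between Apoe groups, these reversed: Dkk3 to 0.839 without Scrublet doublets, Cxcl10 to 0.634 under a 10% mitochondrial maximum, Cxcl10, Il1b, Ifitm3, Bst2 and Ucp2 to 0.914, 0.516, 0.738, 0.418 and 0.719 without macrophage-list members, Cxcl10 and Prdx6 to 0.207 and 0.830 without members rich in the 4 glial genes, Gngt1 to 1.29 without members rich in neuronal transcripts, Spc25 to 0.625 without members with 3 or more Rlbp1, Dkk3, Aqp4 and Clu UMIs, and Cst7 to 0.985 without the deepest Apoe-rich member. The cause was not tested. The last 3 settings were chosen after seeing the data, as was leaving out neuron-rich members from the comparison with other barcodes. No paired analysis was possible because no barcode names its retina, and leaving out a retina was not possible for the same reason. With 17 Apoe-rich members, 1 UMI per barcode or fewer limits most genes within the group.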

Other observations

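Ion channels and purine receptors of microglia gave low but separate counts in the members. The adenosine receptor Adora3 had 54 UMIs over 46 members and 7 in all other barcodes, and the ATP-gated channel P2rx7 31 and 10. The potassium channels Kcnk13 and Kcnk6 had 44 and 32 UMIs in members and 9 and 4 elsewhere, whereas Kcna3 had none in either group. P2ry13, an ADP receptor, was at 191 CPM against 1.24. Adora1, the adenosine receptor of neurons, went the other way, with 5 UMIs in members and a ratio of 0.0766.

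Of 15 genes of the cytoskeleton and motility list that reached 100 UMIs, 10 were 2-fold or more higher in members and 1 lower (median 2.65 on the log2 scale). The actin sequestering peptide Tmsb4x had a ratio of 6.50 and its relative Tmsb10 of 0.333. Arpc1b, a subunit of the actin branching complex, was 81.2-fold higher in members, and its partner subunits Arpc2 and Arpc3 had ratios of 1.87 and 1.89. The small GTPase Rac2 was 191-fold higher. Stmn1, which destabilises microtubules and stands in the cell cycle list, had a ratio of 0.0947.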
